A study of Mus musculus with 4 samples.

Results

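Mitotic keratinocytes of the mouse gingiva, the epithelium around the teeth, were examined as single cells that carried RNA of genes used in cell division. A cell barcode was taken as a member when it had at least 200 genes, at most 20% of its UMIs from mitochondrial genes and fewer than 10000 UMIs in all. It also needed at least 5 UMIs of Krt5 and Krt14 together, fewer than 10 of Krt4 and Krt13 together, and at least 1 UMI in 3 or more of the 8 genes Ube2c, Cdc20, Hmmr, Nusap1, Cenpf, Cenpa, Ccnb2 and Aurka. A UMI is a molecular tag that counts each captured RNA molecule once. This gave 462 members among 3418 keratinocytes that met the other criteria and 7134 barcodes of adequate quality, of 8295 barcodes deposited. The members were chosen by measured RNA, so the levels of those 8 genes and every contrast with other keratinocytes are given as description.

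The tissue was gingiva of the upper jaw of mice, cut up and digested with collagenase and DNase before droplet capture of polyadenylated RNA. The 4 groups were healthy gingiva, gingiva after metformin treatment, gingiva labelled as diseased, and diseased gingiva after metformin treatment, with 1 library each. Metformin is a glucose-lowering biguanide that inhibits respiratory complex I, and the study asked what it does to the gingiva with a view to preventing periodontal disease. The strain, age and number of mice, how the disease arose and how much metformin was given are not given in the sources used here. Sets of 4 values below stand in the order healthy, metformin, disease, disease plus metformin.

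The gingival epithelium renews itself by division of basal keratinocytes, which carry the keratins Krt5 and Krt14, while their daughters move up and differentiate. Mitotic genes switch on together late in the cell cycle, when the B-Myb and FoxM1 transcription factors, held on the MuvB core complex, act at a promoter element called the CHR (cell cycle genes homology region), often beside CCAAT boxes bound by NF-Y. Their products include cyclin B and its kinase Cdk1, which drive entry into mitosis, and partners of the anaphase-promoting complex, the ubiquitin ligase that ends it.

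Promoter sequences of 5 of the 8 genes are shown because they carry the element the 8 genes share most, with Nusap1 as the exception. Each stretch is from RefSeq on build GRCm38.p6 and runs 5′ to 3′ on the gene's strand, from 120 bases before the first transcribed base to 30 bases from it. Capitals mark CHR letters (TTTGAA or TTCGAA, on either strand, so also TTCAAA) and CCAAT letters (CCAAT, or ATTGG for the other strand). These motifs do not overlap each other here. Ube2c is at chr2:164769809-164769958 on the plus strand, Cdc20 at chr4:118437314-118437463 on the minus strand, Cenpa at chr5:30666766-30666915 on the plus strand, Ccnb2 at chr9:70421525-70421674 on the minus strand and Nusap1 at chr2:119618178-119618327 on the plus strand.
Ube2c: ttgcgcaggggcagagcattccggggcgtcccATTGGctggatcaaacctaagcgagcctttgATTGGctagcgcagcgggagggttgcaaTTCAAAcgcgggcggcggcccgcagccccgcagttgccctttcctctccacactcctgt
Cdc20: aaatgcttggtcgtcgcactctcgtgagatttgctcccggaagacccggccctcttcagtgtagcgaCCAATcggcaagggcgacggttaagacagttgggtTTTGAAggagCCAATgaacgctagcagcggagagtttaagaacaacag
Cenpa: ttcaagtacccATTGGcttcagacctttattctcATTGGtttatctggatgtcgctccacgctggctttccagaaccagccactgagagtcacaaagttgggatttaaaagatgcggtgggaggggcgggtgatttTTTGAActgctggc
Ccnb2: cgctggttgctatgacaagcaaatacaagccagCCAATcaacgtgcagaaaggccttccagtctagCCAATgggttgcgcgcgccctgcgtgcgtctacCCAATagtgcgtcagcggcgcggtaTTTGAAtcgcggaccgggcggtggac
Nusap1: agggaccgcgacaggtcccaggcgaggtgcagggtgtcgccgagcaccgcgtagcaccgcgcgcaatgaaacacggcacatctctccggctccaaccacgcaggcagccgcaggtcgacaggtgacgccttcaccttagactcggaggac
The CHR letters began 29 bases before the start in Ube2c and 18 before it in Cdc20, and 17 and 5 bases after it in Cenpa and Ccnb2. In windows from 250 bases before to 50 after the start, CHR letters were found in 7 of the 8 genes and CCAAT letters in the same 7. Of all 27025 genes of the RefSeq table, 21.7% held CHR letters in at least 1 such window, 41.1% CCAAT letters and 8.61% both. The Nusap1 window held neither, which says only that these letters are not in that window. A match is a description of the sequence and not evidence that a factor binds there.

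The libraries held 12507787, 22333858, 14151700 and 13025479 UMIs over 1616, 2814, 1972 and 1893 barcodes. The members held 134492, 759935, 358304 and 308702 of them, so the healthy library gives the least precise values. Over all 4 libraries, 8 barcode sequences occurred in more than 1 library and 0 of these were members. Between 38.6% and 56.1% of members of a library had no mitochondrial UMI and between 43.6% and 60% had no UMI of Malat1, an RNA retained in the nucleus. For non-mitotic keratinocytes these shares were 33.4% to 55.1% and 34.3% to 55.8%. The intervals given throughout are 95% intervals for counting error alone, and those for genes treat each UMI as an independent draw. With 1 library per group there is no measure of the spread between mice, and no difference between groups was tested.

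Mitotic genes the rule did not use were looked at in the same cells. Of 10 further mitotic genes, all 10 were found in a larger share of members than of non-mitotic keratinocytes (0 of the 8 genes detected) in each of the 4 libraries. Birc5, the survivin subunit of the chromosomal passenger complex, was found in 50.9, 57.9, 62.3 and 52% of members. Prc1, which bundles microtubules at the spindle midzone, was found in 38.2, 56.4, 50.9 and 43.9%, and Cdk1 in 47.3, 47.2, 48.2 and 44.9%. Tubb4b, a tubulin, was found in 92.7, 93.3, 91.2 and 82.7% of members and also in 21.4% to 28.7% of non-mitotic keratinocytes. Mki67, the proliferation antigen Ki-67, was found in 14.5, 13.8, 23.7 and 11.2% and Plk1, a kinase of mitotic entry, in 3.64, 20.5, 18.4 and 17.3% of members. The median member of each library held 2017, 3521, 2469 and 2298 UMIs, and the median non-mitotic keratinocyte 936, 1241, 1152 and 1249. Deeper cells show more genes, and the comparator was chosen for lacking 8 genes of the same kind. These shares are therefore description and no test of the name.

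**Figure D1:**
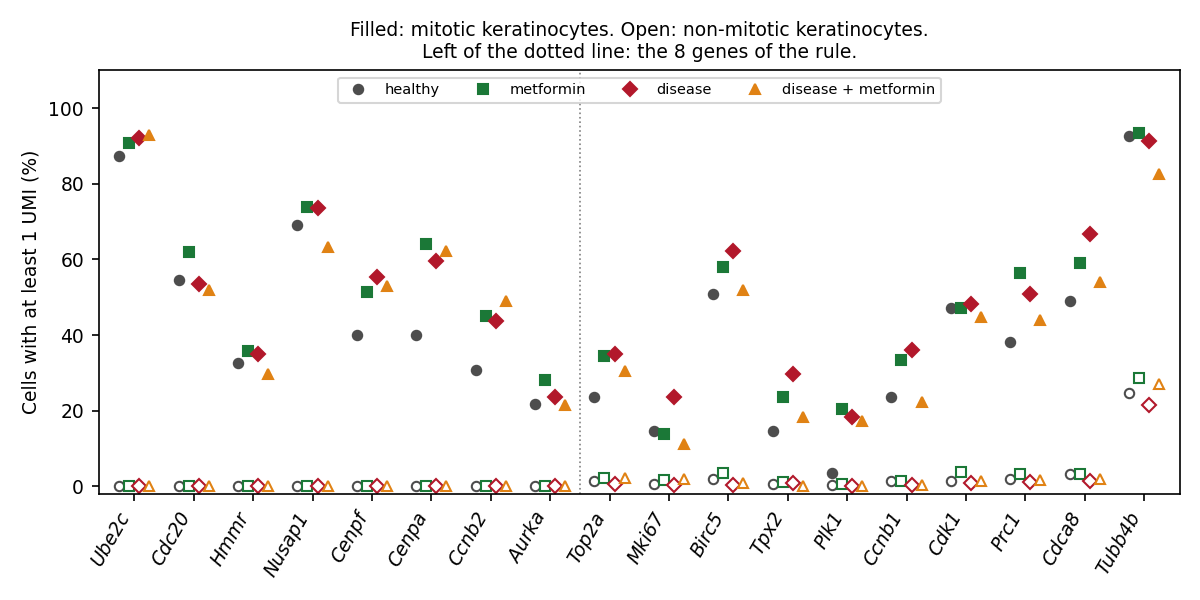
Percent of mitotic (filled) and non-mitotic (open) keratinocytes with at least 1 UMI of the 8 genes of the rule, left of the dotted line, and of 10 mitotic genes the rule did not use, in each of the 4 libraries. Ube2c is found in 87.3% to 92.9% of members, and Plk1 in the healthy library in 3.64%.

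Keratinocyte genes outside the rule were found in members too. Lgals7, an epithelial galectin, was found in 97.4% to 100% of members of a library and Sfn, the epithelial 14-3-3 sigma, in 83.7% to 92.3%. Krt15, a basal keratin, was found in 45.6% to 63.3%. Trp63, the transcription factor that defines stratified epithelium, was found in 12.7% to 18.4%. Genes of the suprabasal layers were present too: Dmkn was found in 76.4% to 84.6% and Krtdap in 47.3% to 70.3% of members, but Krt1 in at most 1.03%.

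Markers of other lineages were counted in the same cells. None of the 462 members held 3 or more genes of the leukocyte, endothelial, fibroblast and pericyte, melanocyte, Merkel and glial, or muscle lists, and 3 counts of 462, taken as the limit that a count of 0 allows, would be a share of 0.649%. Genes of salivary gland cells were different, with 3 or more found in 258 of the 462 members. Gland genes summed to 3643, 17878, 1769 and 7642 CPM (UMIs of the gene per 1000000 UMIs of the summed cells) in members and to 16251, 50453, 4888 and 29382 CPM in non-mitotic keratinocytes. The 4 libraries stand in the same order in both classes, with metformin highest and disease lowest. Other lists were far lower, with leukocyte genes at 92.1 to 113 CPM, endothelial genes at 3.95 to 19.4 CPM and muscle genes at 0 to 2.79 CPM in members. Fibroblast and pericyte genes summed to 1144 to 1312 CPM, mostly from Dcn, which stood at 1249, 1195, 1091 and 1279.6 CPM in members and 608, 944, 772 and 691 CPM in non-mitotic cells. No doublet caller was run.

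The 8 genes marked members unevenly. Ube2c, the ubiquitin-conjugating enzyme of the anaphase-promoting complex, was found in 421 of the 462 members. Nusap1, a spindle-associated protein, was found in 328, the centromeric histone Cenpa in 276, and Cdc20, the activator of the anaphase-promoting complex, in 263. The kinetochore protein Cenpf was found in 237, cyclin B2 (Ccnb2) in 203, the hyaluronan-mediated motility receptor Hmmr, a spindle protein, in 157, and the centrosomal kinase Aurka in 115. Pairs of them met in fewer cells, for example Cdc20 and Cenpa in 167 members. Summed over the members of a library, Ube2c had 1138, 1300.1, 1368 and 1487 CPM, Nusap1 535, 519.8, 525 and 479, Cdc20 268, 337, 318 and 266 and Aurka 89.2, 88.2, 114 and 87.5.

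Membership depended on how many of the 8 genes were seen. Of the 3418 keratinocytes, 2282 had 0 of the 8, 426 had 1, 248 had 2, 171 had 3, 119 had 4, 78 had 5, 52 had 6, 27 had 7 and 15 had 8. Depth was greater with more genes: the median was 1368 UMIs with 2 genes, just outside the rule, 1872 with 3 genes, just inside, and 6129 with 8 genes. In all, 860 barcodes had 3 or more of the 8 genes. Of these, 7 failed the quality limits, 329 had 10000 UMIs or more, 15 more had under 5 UMIs of Krt5 and Krt14, and 47 more had 10 or more UMIs of Krt4 and Krt13, keratins of soft stratified epithelium. Members just inside the limits were 14 cells with 5 to 9 UMIs of Krt5 and Krt14, 43 with 5 to 9 of Krt4 and Krt13 and 25 with at least 8000 UMIs. The barcodes that missed by 1 limit alone were 11 with 1 to 4 UMIs of Krt5 and Krt14, 27 with 10 to 19 of Krt4 and Krt13 and 172 by total UMIs, of which 9 were under 12000.

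The share of keratinocytes that were mitotic lay between 10.4% and 14.5% in the 4 libraries. It was 10.4% (55 of 528, exact Clopper-Pearson 95% interval 7.94% to 13.3%) in healthy, 14.5% (195 of 1344, 12.7% to 16.5%) in metformin, 13.4% (114 of 849, 11.2% to 15.9%) in disease and 14.1% (98 of 697, 11.6% to 16.9%) in disease plus metformin. On the log2 scale, disease stood 0.37 above healthy (interval -0.11 to 0.86) and metformin 0.48 above healthy (0.04 to 0.94). Disease plus metformin stood 0.07 above disease (-0.34 to 0.47) and -0.05 against metformin (-0.41 to 0.31). These comparisons share libraries, since each library enters 2 of them.

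The shares changed when depth was made equal, and no difference between libraries then had an interval away from 0. Keratinocytes of the metformin library had a median of 1527.5 UMIs and those of the healthy library 1070.5. After each cell was thinned to 1000 UMIs and shallower cells were left out, the shares were 7.89% (22 of 279), 8.11% (74 of 912), 11.4% (59 of 516) and 7.95% (36 of 453). The metformin library was then 0.04 above healthy on the log2 scale (-0.66 to 0.80) and disease plus metformin was -0.52 against disease (-1.16 to 0.10). Thinned to 2000 UMIs, the shares were 14.9%, 20.3%, 22.3% and 17.4%, with metformin 0.45 above healthy (-0.28 to 1.26) and disease plus metformin -0.35 against disease (-0.96 to 0.25). Each of the 4 differences had an interval that spanned 0 at either depth. Gland barcodes, a class outside the keratinocytes, met the criterion of 3 mitotic genes in 0.779% (3 of 385), 1.53% (7 of 457), 0.873% (2 of 229) and 0.579% (4 of 691). Whether free RNA or dividing cells gave these was not tested. The median depths of the gland barcodes were 5634, 852, 12644 and 1679 UMIs.

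**Figure D2:**
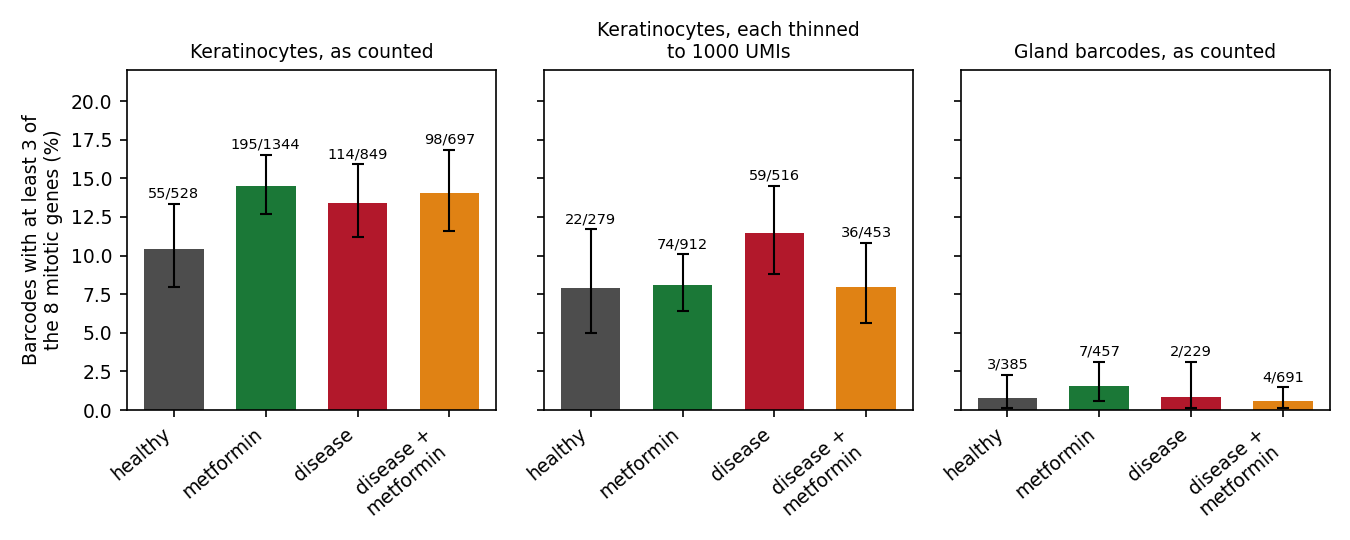
Percent of keratinocytes, of keratinocytes thinned to 1000 UMIs and of gland barcodes with at least 3 of the 8 mitotic genes, per library, with exact 95% intervals. The unthinned shares run from 10.4% to 14.5%, the thinned from 7.89% to 11.4%, and the gland shares stay at or below 1.53%.

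Members were then described against the 2282 non-mitotic keratinocytes of the same libraries. The cell division genes were higher in members across each of their groups, from cyclins to spindle motors, while basal keratinocyte genes stood near their non-mitotic level. A gene counted as measured with at least 50 UMIs over both classes and all libraries, and as higher or lower when it differed at least 2-fold the same way in all 4 libraries. Of 7491 genes measured, 195 (2.6%) were higher and 213 (2.84%) lower by this rule. A summed count of 0 was set to 3 UMIs before a ratio was taken. The cells were chosen by genes of this pattern, so nothing is read from a list's count beside that background. Genes of the rule, which non-mitotic cells lack by choice, were not left out of these counts.

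Of 16 cyclin and mitotic kinase genes measured, 11 were higher and 0 lower. Ccnb1, the partner of Cdk1, stood at 141, 137, 195 and 97.2 CPM in members and at 8.42, 7.71, 2.8 and 2.07 CPM in non-mitotic cells. Cdk1 itself stood at 268, 224, 293 and 230.0 against 10.1, 19.6, 5.59 and 8.29 CPM, and Cks2, a small subunit of that kinase, at 171, 296, 352 and 363 against 25.3, 26.7, 14.9 and 15.5 CPM. Every library had more of these 3 genes in members. Plk1 was not counted as higher because the healthy library held 2 UMIs of it in members and 1 in non-mitotic cells, too few for a ratio, although members stood at 14.9, 68.4, 67 and 61.5 CPM. Cdkn3, a phosphatase that acts on cyclin-dependent kinases, led the 20 highest genes outside the rule. Its log2 ratios were 6.46, 5.06, 5.32 and 5.26, from 149, 158, 112 and 159 CPM in members and 1.68, 4.74, 2.8 and 4.15 CPM in non-mitotic cells.

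Of 13 genes of the anaphase-promoting complex and its ubiquitin cycle, 7 were higher. They were Ube2c and Cdc20, both of the rule and so higher by the choice of cells, and Ube2s, Fbxo5, Pttg1, Anapc15 and Fzr1. Pttg1 encodes securin, the inhibitor of separase that the complex destroys at anaphase, and it stood at 230.5, 271, 424 and 194 CPM in members against 10.1, 13.6, 11.2 and 8.29 CPM. Ube2s, which extends ubiquitin chains on the complex's substrates, stood at 684, 759, 739.6 and 677 against 128, 102, 115 and 97.4 CPM. The core subunits Anapc11, Anapc13, Anapc5, Cdc26, Cdc27 and Cdc16 did not reach 2-fold in all 4 libraries. Anapc11 stood at 186, 142, 151 and 168 against 75.8, 69.4, 71.8 and 92.2 CPM, above the non-mitotic level in each library.

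Kinetochore and checkpoint genes were higher in large part, and 0 of them were lower. Of 17 kinetochore and centromere genes 13 were higher, among them the outer kinetochore genes Ndc80, Nuf2, Spc24, Spc25, Ska1 and Knl1. Of 10 checkpoint and passenger complex genes 9 were higher, including Mad2l1, Bub3, Incenp, Cdca8 and Sgo1. Birc5 stood at 268, 326, 399 and 369 CPM in members against 11.8, 19, 3.73 and 4.15 CPM, with log2 ratios of 4.51, 4.10, 6.74 and 6.48. Cdca3, which takes part in the destruction of Wee1, had log2 ratios of 4.46, 5.07, 5.44 and 5.05.

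Spindle and kinesin genes gave the longest list, with 23 of 29 higher and 0 lower. Prc1 stood at 260.2, 338, 424 and 317 CPM in members against 11.8, 19, 7.46 and 8.29 CPM. Tpx2, which activates Aurora A on the spindle, had log2 ratios of 4.46, 3.81, 5.04 and 6.17, and Ckap2l, a spindle protein, stood at 126, 184, 201 and 159 against 5.05, 7.11, 7.46 and 4.15 CPM. Stmn1, which destabilizes microtubules and is inactivated in mitosis, was abundant at 476, 543, 667 and 515 against 47.1, 76.5, 65.3 and 52.9 CPM. Of 8 tubulin genes 6 were higher. Tubb4b stood at 1502, 1712, 1761 and 1283 CPM against 236, 215, 162 and 199 CPM, although reads of near-identical tubulin copies may be split among them.

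Chromatin genes followed. Of 20 condensin and chromatin genes 15 were higher, among them the condensin subunits Smc2, Smc4 and Ncapg. Top2a, the topoisomerase that untangles sister chromatids, stood at 201, 161, 343 and 165 CPM against 8.42, 13.6, 3.73 and 11.4 CPM. The chromatin protein Hmgb2 stood at 1495, 1588, 1543 and 1373 against 135, 178, 132 and 133 CPM, and the histone variant H2afz at 1643, 1901, 1926 and 2106 against 325, 311, 282 and 267 CPM.

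Genes of DNA replication, which takes place earlier in the cell cycle than mitosis, were higher in part. Of 25 measured 8 were higher, with list medians of 1.14, 1.35, 1.58 and 1.35 on the log2 scale. Those 8 were Tyms, Tk1, Rrm1, Rrm2, Fen1, Prim1, Rfc4 and Rfc5. Tyms, thymidylate synthase, stood at 178, 203, 165 and 165 CPM against 30.3, 33.2, 28.9 and 28 CPM. Pcna, the sliding clamp of replication, stood at 52, 75, 83.7 and 55.1 against 58.9, 45.1, 34.5 and 36.3 CPM and was below the non-mitotic level in the healthy library. Of 26 replication-dependent histone genes 19 were higher, and together they summed to 3926, 5194, 5733 and 3748 CPM in members against 482, 615, 476 and 385 CPM. Most mRNAs of these histone genes end without a poly(A) tail, so a polyadenylated library may hold only part of them, and reads of their near-identical copies may be split between genes.

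**Figure D3:**
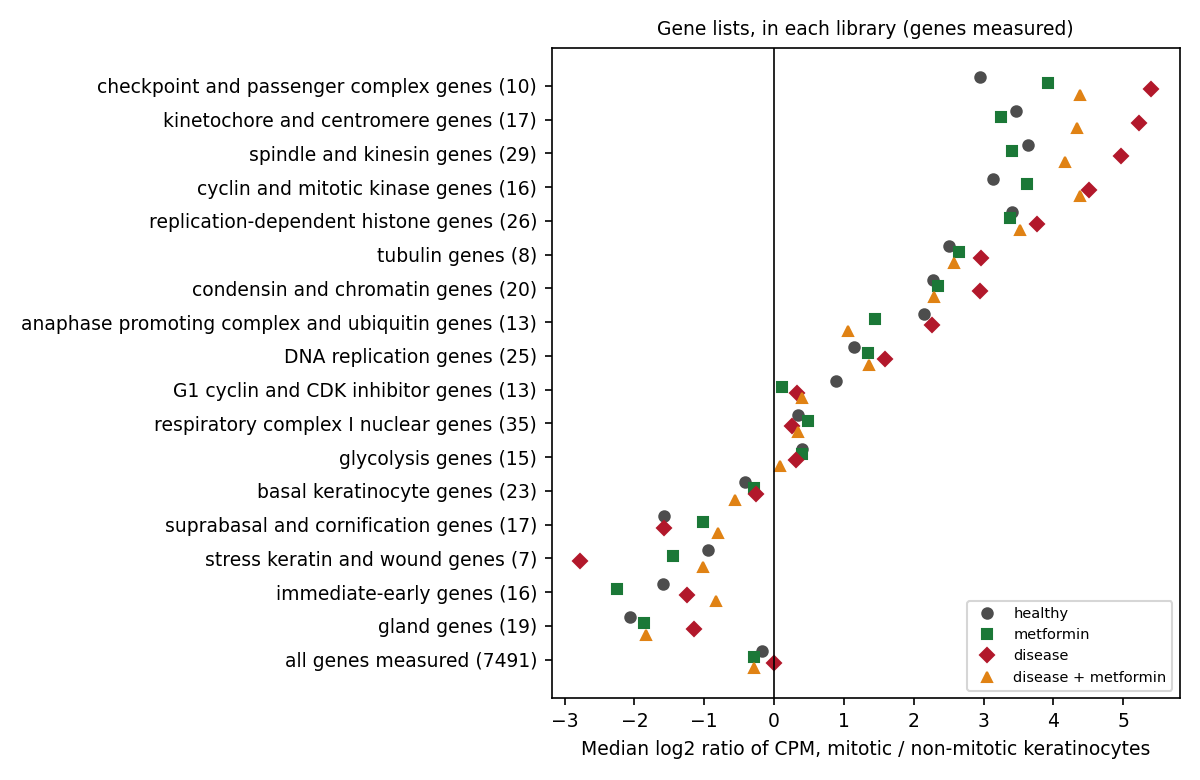
Median log2 ratio of CPM between mitotic and non-mitotic keratinocytes for each gene list, with 1 symbol per library and the number of genes measured in brackets. Division lists stand well above 0 in all 4 libraries (checkpoint genes 2.95, 3.92, 5.40 and 4.37), basal keratinocyte genes just below it (-0.41, -0.29, -0.26 and -0.56).

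Genes of the keratinocyte programme differed less. Of 23 basal keratinocyte genes 0 were higher and 1, Postn, was lower. Krt14 stood at 14083, 15608, 14108 and 14415 CPM in members and 15684, 15139, 16905 and 14882 CPM in non-mitotic cells, but the rule used it. Krt15, which the rule did not use, stood at 1086, 795, 427 and 764 against 941, 898, 363 and 1019.9 CPM, higher in members of 2 libraries and lower in members of the other two. Of 17 suprabasal and cornification genes 4 were lower, Sbsn, Sprr1a, Dsg1a and Calm4, with list medians of -1.57, -1.02, -1.58 and -0.80. Sbsn, a suprabasal secreted protein, stood at 29.7, 52.6, 39.1 and 45.4 against 141, 129, 172 and 121 CPM. Krtdap, a differentiation-associated protein, stood at 1063, 1482, 1158 and 1461 against 1499, 1491, 1862 and 1649 CPM and did not reach 2-fold in any library.

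Of 7 stress keratin and wound genes 2 were lower, both of them keratins. Krt16, a keratin of activated and wounded epithelium, stood at 59.5, 73.7, 50.2 and 32.4 CPM in members against 779.6, 642, 785 and 437 CPM in non-mitotic cells, with log2 ratios of -3.71, -3.12, -3.97 and -3.76. Krt6b, a type II keratin of the same response, stood at 0, 36.8, 11.2 and 3.24 against 540.5, 254, 512 and 163 CPM. Sprr2d, a small proline-rich protein of the cornified envelope, was at 0, 1.32, 5.58 and 0 against 212, 96.6, 331 and 129.6 CPM. Ccnd2, a cyclin of the G1 phase, was the 1 lower gene among 13 G1 cyclins and cyclin-dependent kinase inhibitors, at 29.7, 9.21, 11.2 and 16.2 against 80.8, 33.8, 59.7 and 38.4 CPM. Without contractile barcodes, described next, 0 of 12 measured genes of that list were lower. In the same list the inhibitors Cdkn2c and Cdkn2d were higher, Cdkn2d at 164, 162, 201 and 159 against 8.42, 19, 17.7 and 23.8 CPM, and Ccnd1 was near the same level in both classes at 149, 117, 97.7 and 100.4 against 149.9, 136, 113 and 98.5 CPM.

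The count of lower genes rested on a small set of comparator cells. Among non-mitotic keratinocytes, 3.16%, 1.91%, 5.14% and 5.85% held at least 5 UMIs of 7 contractile genes, and among members 0% did in each library (upper exact bounds 6.49%, 1.87%, 3.18% and 3.69%). Acta2, smooth muscle actin, stood at 0, 5.26, 27.9 and 3.24 CPM in members and 1825, 711, 1627 and 3565 CPM in non-mitotic cells. Without those barcodes, an alternative chosen after the data were seen, 194 genes were higher and 54 of 6533 (0.827%) lower. Krt16 and Sprr2d were still among the 15 lowest, and Krt6b, which had not been, was among them too. Immediate-early genes, which respond within minutes to stimulation or to tissue handling, went from 4 of 16 lower to 1 of 16, and basal keratinocyte genes from 1 of 23 to 0 of 22. The share of lower genes also rested on how many libraries had to concur: it was 6.35% without the healthy, 4.39% without the metformin and 6.46% without the disease library.

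Metabolic and chaperone lists showed no gene past 2-fold in all 4 libraries. This held for 15 glycolysis genes (medians 0.41, 0.40, 0.31 and 0.08), 35 nuclear genes of respiratory complex I (0.34, 0.49, 0.25 and 0.35), 12 AMPK, mTORC1 and metformin response genes, 20 heat shock and chaperone genes and 14 nucleolar genes. The medians over all genes were -0.18, -0.28, -0.00 and -0.28. Among regulators of mitotic genes, 8 were measured (Lin37, Lin54, Rbbp4, E2f3, E2f4, Tfdp1, Nfyb and Nfyc), and 0 passed the threshold in either direction. Foxm1 and Mybl2, which encodes B-Myb, had fewer than 50 UMIs and were not measured.

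The promoters of these groups were scanned for the same letters as those printed above. Of the genes higher in members, 141 of 195 matched the RefSeq table, and 46.8% of these held CHR letters, 66.7% CCAAT letters and 36.9% both. Genes of the rule, of which 7 of 8 held CHR letters, were not left out of that set. Of the 5991 measured genes that matched, 16.2%, 42.5% and 6.83% did. Of the 159 matched lower genes, 14.5% held CHR letters. CHR letters were found for 22 of 28 matched spindle and kinesin genes and for 7 of 34 matched DNA replication genes.

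Members varied among themselves in their histone RNA. At least 3 replication-dependent histone genes were found in 52.7% (29 of 55), 51.8% (101 of 195), 50% (57 of 114) and 38.8% (38 of 98) of members, against 6.32%, 10.5%, 5.48% and 5.43% of non-mitotic keratinocytes. Summed over libraries, the 225 members with this histone RNA had more replication RNA and less RNA of several mitotic genes than the 237 without. Pcna was higher in them by 2.86 on the log2 scale (95% interval 1.96 to 3.91), Tyms by 1.34 and Dut, which keeps uracil out of DNA, by 1.39. Cenpa stood at -1.24, Cdc20 at -1.16, Cenpf at -1.03 and Ube2c at -0.83. These 4 genes belong to the rule. Ccnb1, which does not, stood at -0.78 and Tubb4b at -0.45. Birc5 stood at 0.02 and Cdk1 at -0.10, near 0.

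By library, Tyms was higher in members with histone RNA by 1.35, 1.34, 1.42 and 1.28. In healthy its interval spanned 0 (-0.12 to 3.13). Cdc20 stood at -1.06, -1.38, -0.76 and -1.35. Cenpa stood at -1.40, -1.19, -1.20 and -1.35, and like Cdc20 it belongs to the rule. Outside the rule, Ccnb1 stood at -1.03, -0.59, -1.14 and -0.94, with intervals that spanned 0 in healthy and in disease plus metformin. Prc1, a protein of the central spindle, had no single direction, at 0.75, -0.68, -0.01 and -1.69. The members with histone RNA were deeper, at a median of 3682 against 2212 UMIs. Among members with at least 2000 and under 5000 UMIs, a range chosen after the data were seen, the medians were 3403 and 2955.5 UMIs, and Pcna stood at 2.90, Tyms at 1.36, Cenpa at -1.45, Cdc20 at -0.87 and Ube2c at -0.93. Prc1 stood at 0.0229 there and at -0.53 over all members.

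**Figure D4:**
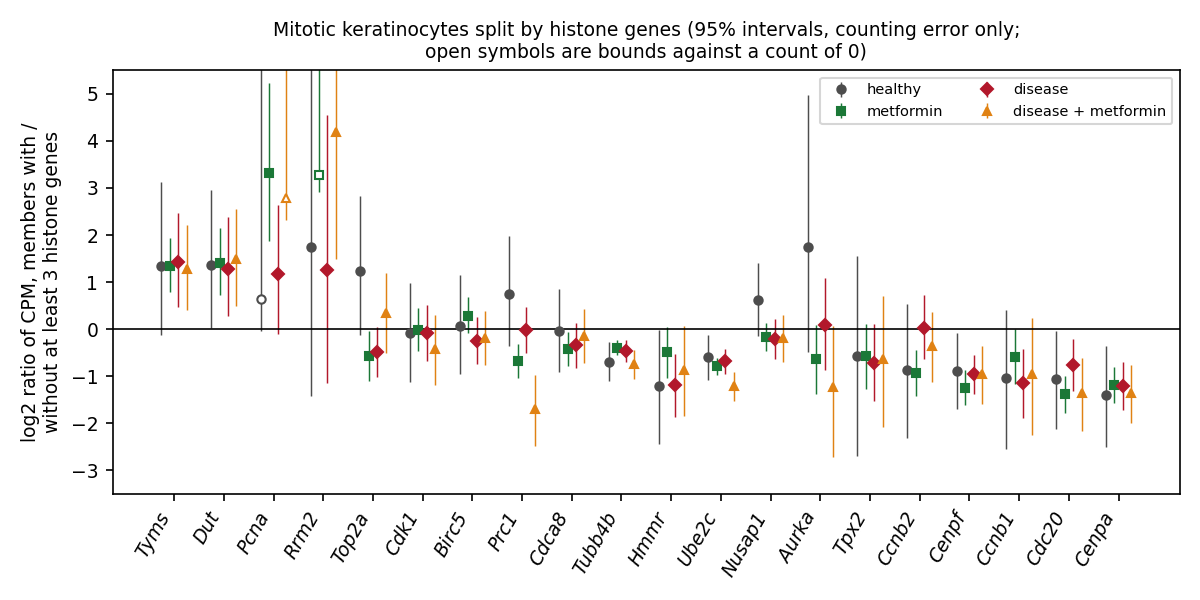
log2 ratio of CPM between members with and without at least 3 histone genes, per gene and library, with 95% intervals for counting error, where open symbols are bounds against a count of 0. Tyms lies above 0 in all 4 libraries (1.28 to 1.42), with an interval that spans 0 in healthy (-0.12 to 3.13). Cdc20 and Cenpa, both genes of the rule that chose the cells, lie below 0 in all 4.

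Histone-expressing keratinocytes that had fewer than 3 of the 8 genes gave a second comparison, with 64, 202, 106 and 70 cells. Of 3969 genes measured, 29 (0.731%) were higher in members in all 4 libraries and 1 (0.0252%) was lower. That 1 gene was Ccne2, cyclin E2 of the G1 to S transition, with 50 UMIs in all and log2 ratios of -1.58, -1.24, -2.55 and -3.15. Spindle genes made up 12 of the 29, and replication genes 0 of 26 and histone genes 0 of 28 measured. Genes of the rule were not left out of these counts either. Pttg1 had log2 ratios of 2.28, 2.49, 2.27 and 2.08, Ckap2l 2.73, 2.54, 1.90 and 2.20 and Ccnb1 2.31, 2.39, 3.32 and 1.27. Pcna ran the other way in CPM, at 52, 75, 83.7 and 55.1 in members and 219, 101, 103 and 138 in histone-expressing cells.

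The members of the 4 libraries were compared next, to see how disease and metformin went with their RNA. In these comparisons a gene was measured with at least 50 UMIs over both libraries and counted as higher or lower at 1.5-fold, and differences are log2 ratios of CPM. Genes of the rule, which chose the cells, were not left out of the lists, sums and counts here either. The members' depth, gland RNA and shares without nuclear or mitochondrial RNA differ between libraries as given above, and their part in these differences was not tested. Group and preparation cannot be told apart in any of the 4 comparisons.

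In disease against healthy, members had more RNA of part of the spindle and histone genes, and less of 2 keratins. Of 1060 genes measured, 142 (13.4%) were higher and 52 (4.91%) lower. Of 11 spindle and kinesin genes 7 were higher and 0 lower (median 0.66, all genes 0.05), and the list summed to 3703 CPM in healthy and 5509 CPM in disease. With every cell weighted equally 5 of the 11 were higher, and with median-of-ratios scaling 6. Of 12 histone genes 5 were higher and 0 lower (median 0.36), and of 15 condensin and chromatin genes 5 were higher and 1 lower (median 0.23). Mki67 stood at 81.8, 88.2, 218 and 48.6 CPM over the 4 libraries, higher in disease than in healthy by 1.41 (95% interval 0.49 to 2.47). Top2a was higher by 0.77 (95% interval 0.16 to 1.43), and Hist1h3c by 1.61 (95% interval 0.92 to 2.39). Reep4, which clears endoplasmic reticulum from mitotic chromosomes, was higher by 2.56 (95% interval 0.92 to 4.88), but from only 3 UMIs in healthy.

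The 2 keratins were Krt76 and Krt15. Krt76, a keratin of differentiated oral epithelium, stood at 565, 369.8, 184 and 479 CPM in members, and disease stood at -1.62 (95% interval -2.12 to -1.12) against healthy. A single barcode held 36.8% of the Krt76 UMIs of healthy members. Krt15 stood at 1086, 795, 427 and 764 CPM, and disease at -1.35 (95% interval -1.68 to -1.01) against healthy. Non-mitotic keratinocytes had the lowest Krt15 level in disease too, at 941, 898, 363 and 1019.9 CPM. Their Krt76 level was lowest in metformin, at 1088, 502, 678 and 785 CPM. Krt14 stood at 0.00 (95% interval -0.07 to 0.08) and Ube2c at 0.27 (95% interval 0.00 to 0.54). Among the 14 healthy and 29 disease members with both Malat1 and mitochondrial RNA, 28.0% of genes were lower in place of 4.91%.

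In metformin against healthy, histone genes were again among the higher genes. Of 1594 genes measured, 217 (13.6%) were higher and 110 (6.9%) lower. Of 20 histone genes 8 were higher and 0 lower (median 0.44, all genes 0.04), and the histone sum was higher by 0.40 (0.27 to 0.54). Among members with Malat1 and mitochondrial RNA that sum stood at -0.0917. Of 12 spindle and kinesin genes 2 were higher and 1 lower. The 34 measured nuclear genes of respiratory complex I, the enzyme that metformin inhibits, had 0 past 1.5-fold in either direction, and 4 higher with median-of-ratios scaling.

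Single genes also differed. Ndufa4l2, a hypoxia-induced mitochondrial protein, had 0 UMIs in healthy and 63 in metformin members, at least 3.72-fold higher with the healthy count set to a floor of 3 UMIs. The exact interval of that comparison began at 1.55 on the log2 scale. Mxd3, a partner of Max expressed in dividing cells, had 0 and 53 UMIs, at least 3.13-fold higher against the same floor, with an exact interval from 1.30 on the log2 scale. With no upper limit on total UMIs its log2 ratio was -0.0534. Sod1, the cytosolic superoxide dismutase, stood at -0.79 (95% interval -1.26 to -0.31) and Lmo4, a transcriptional adaptor, at -1.37 (95% interval -2.14 to -0.55). Gland genes were higher for 11 of 12 (median 1.98), as they were in non-mitotic keratinocytes by summed CPM. With median-of-ratios scaling the median over all genes was 0.21 higher, and 358 genes were higher and 53 lower. With no upper limit on total UMIs 37.2% of genes were lower.

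In disease plus metformin against disease, part of the spindle, histone, kinetochore and condensin genes were lower. Of 1349 genes measured, 80 (5.93%) were higher and 149 (11.0%) lower. Of 14 spindle and kinesin genes 8 were lower and 0 higher (median -0.70, all genes 0.05), and the list summed to 5509 CPM in disease and 3991 CPM in disease plus metformin. Of 14 histone genes 7 were lower and 0 higher (median -0.66), of 8 kinetochore genes 4 were lower, and of 16 condensin and chromatin genes 5 were lower. The other division lists moved less, with 2 of 9 cyclin and mitotic kinase genes, 1 of 7 anaphase-promoting complex genes, 1 of 6 checkpoint genes, 0 of 4 tubulin genes and 0 of 4 replication genes lower. Mki67 stood at -2.16 (95% interval -3.07 to -1.35), Anln, an actin-binding protein of the cleavage furrow, at -1.57 (95% interval -2.30 to -0.88) and Pttg1 at -1.13 (95% interval -1.58 to -0.69). Ube2c stood at 0.12 (95% interval -0.07 to 0.31) and Cdc20 at -0.26 (95% interval -0.69 to 0.16). Both of these belong to the rule that chose the cells, so nothing is read from their levels here.

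The keratins Krt76 and Krt15 were higher in that pair, by 1.38 (95% interval 0.95 to 1.82) and 0.84 (95% interval 0.54 to 1.14). Non-mitotic keratinocytes also had more of both, with Krt76 at 678 CPM in disease and 785 in disease plus metformin. Krt15 stood there at 363 and 1019.9 CPM. Krt14 stood at 0.03 (95% interval -0.03 to 0.09), and of 13 basal keratinocyte genes 1 was higher and 4 were lower (median -0.34). Fabp5, a fatty acid-binding protein of keratinocytes, stood at 1636, 1713, 1485 and 2647 CPM over the 4 libraries and was higher by 0.83 (95% interval 0.67 to 0.99). Of 34 complex I genes 2 were higher, Ndufa9 at 1.25 (95% interval 0.43 to 2.13) and Ndufs4 at 0.60 (95% interval -0.18 to 1.40), with a median of 0.17 and 6 higher with median-of-ratios scaling. Gland genes were higher for 8 of 9 (median 2.19). With median-of-ratios scaling the median over all genes was 0.20 higher, 174 genes were higher and 112 lower, and 7 of 14 histone genes and 7 of 14 spindle genes were lower. With every cell weighted equally 4 of 14 spindle genes were lower.

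In disease plus metformin against metformin, histone genes were lower and no spindle gene passed 1.5-fold. Of 1853 genes measured, 122 (6.58%) were higher and 124 (6.69%) lower. Of 20 histone genes 9 were lower and 0 higher (median -0.57, all genes 0.04), and the histone sum stood at -0.47 (-0.57 to -0.38). The 15 spindle and kinesin genes had a median of -0.09, and their sum stood at 0.01. With either other scaling 1 of them was lower. Glo1, the glyoxalase that detoxifies methylglyoxal, was higher by 1.52 (95% interval 1.14 to 1.91) and Hopx, a homeodomain protein without DNA binding, stood at -1.53 (95% interval -2.21 to -0.91). Of 34 complex I genes 0 passed 1.5-fold, and of 10 glycolysis genes 3 were lower. With median-of-ratios scaling 83 genes were higher and 163 lower, a shift in the split towards lower genes.

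**Figure D5:**
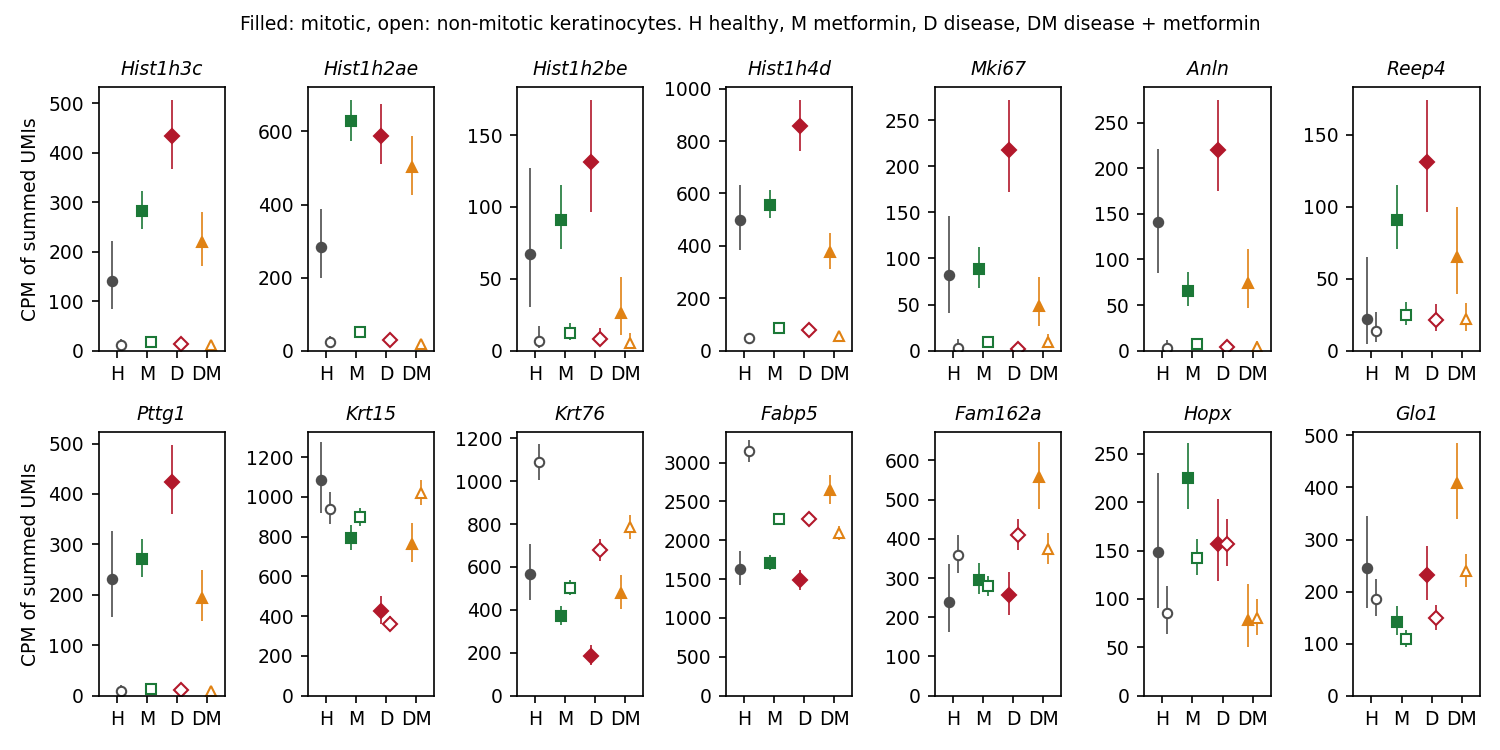
CPM of summed UMIs with 95% intervals for counting error in mitotic (filled) and non-mitotic (open) keratinocytes of the 4 libraries, for selected genes. Mki67 in members is highest in disease (218 CPM) and lowest in disease plus metformin (48.6 CPM), and Krt76 and Krt15 in members are lowest in disease (184 and 427 CPM).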

How the data were processed

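Per the submitters' processing notes, reads were converted with bcl2fastq and counted with Cell Ranger 7.0.1 on mouse build mm10. The authors deposited raw counts (UMIs of each gene in each barcode, not normalized), and the lowest total of a deposited barcode was 500 UMIs. The 32285 features carried 32245 symbols, and features that shared a symbol were summed. Whether strand was used in counting is not stated in those notes.

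The members and gene lists were chosen with earlier results of these data known. For each library the UMIs of all cells in a class were added up, and levels are CPM of the total. Shares have exact Clopper-Pearson intervals and ratios have conditional exact binomial intervals, all at 95%, which cover counting error only. Before a ratio was taken, a sum of 0 was replaced by 3 UMIs. The code was tested on simulated data. Genes named were the 8 of the rule, the 20 highest and 15 lowest against non-mitotic cells (at least 100 UMIs), and 5 each way per comparison of libraries, ranked by the interval bound nearest 0, with no barcode over 20% of the UMIs. Up to 5 members of each list by total UMIs were named too. The ranked sets exclude predicted genes without a name, sex-linked, mitochondrial, ribosomal and haemoglobin genes, and antigen receptor genes. Other list genes named were chosen after their values were seen.

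Alternatives varied the number of mitotic genes, the keratin, mitochondrial and total UMI limits, the need for Malat1 and mitochondrial RNA, the gene minimum, scaling, weighting, thinning, the comparator and each library left out. Python 3.11.15, numpy 2.4.6, scipy 1.17.1, pandas 2.3.3 and matplotlib 3.10.9 were used.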

Additional observations from a re-analysis of the deposited data

Results flagged for a closer look

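Among 158 genes named or listed, 119 were measured in both metformin pairs. The 158 include genes of the rule and genes ranked highest or lowest in these same comparisons of libraries. The share of opposite signs over all genes was not counted, so nothing is read from the number found. For 6 of them metformin went with opposite signs in healthy and diseased members, and the counting interval lay away from 0 in each pair. The difference between the pairs was itself not tested, since each pair is 2 libraries. Values are log2 ratios of CPM, and the difference is that in the healthy pair minus that in the diseased pair.

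For Krt76, a keratin of differentiated oral epithelium, metformin stood at -0.61 in the healthy pair and 1.38 in the diseased pair, a difference of -1.99. A single barcode held 36.8% of its UMIs in healthy members. For the basal keratin Krt15 the values were -0.45 and 0.84, a difference of -1.29. For Glo1, the glyoxalase, they were -0.79 and 0.82, a difference of -1.61, and for Ndufb4, a complex I subunit, -0.45 and 0.31, a difference of -0.76. Non-mitotic keratinocytes went the same ways for Krt76 (1088, 502, 678 and 785 CPM), Krt15 (941, 898, 363 and 1019.9) and Glo1 (185, 108, 149 and 239). For Krt76 and Glo1 the opposite signs are thus not particular to members. For Krt15 the non-mitotic intervals of the healthy pair overlapped, at 864.8 to 1022.6 CPM in healthy and 853.4 to 944.5 CPM in metformin. Whether non-mitotic cells share its decrease in that pair is therefore not shown. For Ndufb4 non-mitotic cells were lower with metformin in both pairs, at 423, 350, 370 and 328 CPM.

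Hist1h3c, a replication-dependent histone gene, went the other way, at 1.00 and -0.97, a difference of 1.97. A single barcode held 21.1% of its UMIs in healthy members. Reep4 stood at 2.03 and -1.02, a difference of 3.04, with 3 UMIs in healthy members. In non-mitotic keratinocytes Hist1h3c stood at 11.8, 17.8, 14.0 and 12.4 CPM, the same signs from low levels. Reep4 stood there at 13.5, 24.9, 21.4 and 21.8 CPM, not lower with metformin in the diseased pair.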

How the results depend on the processing

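No paired analysis was possible because each group is 1 library and the labels give no replicate numbers. The share of mitotic keratinocytes ranged over the settings from 0.08 to 0.75 (log2) for disease against healthy, 0.04 to 0.92 for metformin against healthy, -0.52 to 0.30 for disease plus metformin against disease and -0.22 to 0.29 for disease plus metformin against metformin. For disease plus metformin against disease it was -0.52 with cells thinned to 1000 UMIs and -0.35 thinned to 2000. The percent of genes higher in members than in non-mitotic cells was 5.05 with no upper limit of total UMIs. The percent lower was 1.70 with no upper limit, 0.827 without contractile barcodes, 6.43 against non-mitotic cells with at least 2000 UMIs, and 4.07 to 6.46 with 1 library left out.

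For disease against healthy, the percent higher was 6.56 with no upper limit, 27.4 at a gene minimum of 20 UMIs and 7.44 at a minimum of 100. The percent lower was 7.84 with at least 4 of 8 mitotic genes, 8.83 with no upper limit, 28.0 in barcodes with Malat1 and mitochondrial UMIs, 8.07 at a minimum of 20 and 2.18 at 100. For metformin against healthy, the percent higher was 22.5 with median-of-ratios size factors and 8.77 at a minimum of 100. The percent lower was 37.2 with no upper limit, 3.33 with median-of-ratios factors, 14.6 at a minimum of 20 and 3.26 at 100. For disease plus metformin against disease, the percent higher was 27.4 in barcodes with Malat1 and mitochondrial UMIs, 12.9 with median-of-ratios factors and 9.40 at a minimum of 20. The percent lower was 24.1 at a minimum of 20 and 6.46 at 100. For disease plus metformin against metformin, the percent higher was 26.9 with no upper limit, 11.0 in barcodes with Malat1 and mitochondrial UMIs, 13.3 at a minimum of 20 and 3.56 at 100. The percent lower was 10.4 with no upper limit and also 10.4 with every cell weighted equally, 13.5 at a minimum of 20 and 4.31 at 100. A lower minimum tests more genes with few UMIs. For the other settings the cause was not tested.

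Reversed were Mxd3 in metformin against healthy (-0.0534 with no upper limit), the histone sum in the same comparison (-0.0917 in barcodes with Malat1 and mitochondrial UMIs) and Prc1 by histone RNA (0.0229 in members with at least 2000 and under 5000 UMIs). Of the values for single genes, 902 stayed within their counting interval, 128 moved beyond it and 1 reversed. The alternatives without contractile barcodes and with members of at least 2000 and under 5000 UMIs were chosen after the data were seen.

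Depth limits the healthy library most, with 55 members and 134492 UMIs. A median member held 2017 to 3521 UMIs, and keratinocytes with more of the 8 genes were deeper. The limit of 10000 UMIs leaves out 329 barcodes with 3 or more mitotic genes, among which deep single cells and doublets cannot be told apart.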

Other observations

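Desmosome genes, which hold keratinocytes together, numbered 10 among those measured in members against non-mitotic keratinocytes, and 0 were higher. The 2 lower at 2-fold in all 4 libraries were Dsg1a and Dsc2, with log2 ratios of -1.52, -1.17, -3.14 and -1.82 for Dsc2 in healthy, metformin, disease and disease plus metformin. Perp, a desmosomal membrane protein, stood at 506, 546, 486 and 729 CPM in members and 726, 686, 743 and 720.4 CPM in non-mitotic cells. Over all 7491 genes measured, 2.6% were higher and 2.84% lower.

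Of 6 DNA damage repair genes 1 was higher, H2afx, the histone variant phosphorylated at double-strand breaks, at 283, 311, 413 and 340.1 CPM against 32, 23.1, 15.8 and 14.5 CPM. Of 10 p53 target genes 0 were higher and 1, the antiproliferative gene Btg2, was lower. Of 14 interferon and antigen presentation genes 0 were higher and 1, Ifitm3, was lower, at 141, 193, 218 and 178 CPM against 439, 429, 655 and 1362 CPM. Without contractile barcodes 0 of 8 p53 targets and 0 of 11 interferon and antigen presentation genes were lower. Of 5 epithelial chemokine and cytokine genes 0 were higher and 1, Csf1, was lower, at 7.44, 0, 2.79 and 0 CPM against 21.9, 9.48, 25.2 and 65.3 CPM. Without contractile barcodes 0 of 4 measured genes of that list were lower. Over all genes, 2.6% of 7491 were higher and 2.84% lower, and without contractile barcodes 54 of 6533 were lower. With so few genes per list, nothing is read from these counts.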
